A study of Homo sapiens with 4 samples.

Results

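Long intergenic noncoding RNA genes, whose symbols start with LINC, were examined in the human embryonic stem cell line H1, taken at day 2 of its differentiation toward blood and treated with IWP2 or with DMSO. The genes were selected on their own level in these libraries, as the rows of the FPKM table (fragments per kilobase of transcript, scaled to the mapped fragments of each library) whose symbol starts with LINC and that reached 1 FPKM in at least 2 of the 4 libraries. Symbols that contain -AS would have been left out, and 0 LINC rows contained it. The rule kept 88 of the 1896 LINC rows (4.64%), out of 58365 rows in the whole table. Another 1295 LINC rows were listed at 0 in all 4 libraries, 491 stayed below 1 FPKM everywhere with a value above 0, and 22 reached 1 FPKM in exactly 1 library.

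The series held 2 DMSO libraries and 2 IWP2 libraries. All 4 came from H1 cells cultured to day 2 in custom mTeSR1 with activin A (40 ng/ml in the labels) and BMP4 (50 ng/ml in the labels), the DMSO libraries with solvent alone and the IWP2 libraries with the inhibitor, whose dose the labels do not give. The study's methods give the amounts of activin A and BMP4 the other way round. H1 is 1 established line with no transgene named in the labels, RNA was read in bulk from a kit that does not mark strand, and the labels do not say whether the libraries of a group came from separate cultures. A general statement in the study's methods speaks of independent experiments but of more of them than there are libraries in a group here, so each p-value is taken to measure only the spread between these libraries, which may be technical. No count is in the table and the sequencing depth is unknown.

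Long noncoding RNAs are transcribed and spliced like messenger RNAs but give no known protein of usual length. Many are present at low levels and in few cell types, and several mark pluripotent cells or single germ layers. Some lie next to transcription factor genes and share a bidirectional promoter with them, and a few LINC entries were later found to encode a short protein and were renamed. IWP2 inhibits Porcupine, the acyltransferase that adds the lipid that Wnt proteins need for secretion, and so lowers the Wnt signal that cells send to each other. Wnt signaling acts through beta-catenin and TCF/LEF factors and is known for its part in primitive streak and mesoderm formation.

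LINC01124 and SP5 are shown first because the LINC gene lies head to head with SP5, a zinc finger gene known as a direct Wnt target, and LINC01356 because its window was the only one among the called LINC genes that held a TCF/LEF sequence. Each window is the 300 bases around the RefSeq start (GRCh38.p14), most of them upstream and is printed 5′ to 3′ on the gene's own strand with every CTTTGAA or CTTTGAT, on either strand, in capitals.
LINC01124, chr2:170714518-170714817, minus strand: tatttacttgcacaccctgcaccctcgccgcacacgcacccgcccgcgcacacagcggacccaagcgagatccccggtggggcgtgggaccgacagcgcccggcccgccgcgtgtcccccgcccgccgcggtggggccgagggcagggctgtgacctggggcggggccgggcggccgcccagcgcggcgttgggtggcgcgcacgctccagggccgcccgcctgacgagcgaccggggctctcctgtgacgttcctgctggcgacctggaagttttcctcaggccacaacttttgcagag
SP5, chr2:170715087-170715386, plus strand: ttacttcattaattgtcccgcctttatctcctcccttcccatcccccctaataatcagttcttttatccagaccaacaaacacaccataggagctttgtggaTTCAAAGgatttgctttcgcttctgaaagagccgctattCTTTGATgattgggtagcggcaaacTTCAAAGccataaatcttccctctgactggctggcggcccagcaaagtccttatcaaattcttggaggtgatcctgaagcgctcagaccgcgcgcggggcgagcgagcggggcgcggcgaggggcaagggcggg
LINC01356, chr1:112850594-112850893, minus strand: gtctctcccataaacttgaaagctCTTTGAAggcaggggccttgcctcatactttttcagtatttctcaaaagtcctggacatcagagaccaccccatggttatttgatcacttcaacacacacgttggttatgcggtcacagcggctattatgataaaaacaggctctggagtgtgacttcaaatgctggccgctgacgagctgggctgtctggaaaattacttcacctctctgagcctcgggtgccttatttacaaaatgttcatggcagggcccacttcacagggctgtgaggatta
The LINC01124 window held 0 matches and the SP5 window 3, and 269 bases separated the windows. LINC01356 held 1 match. Of all 35116 RefSeq windows of this length, 2409 (6.86%) held at least 1 match. Windows were found for 64 of the 88 LINC genes, of which 2 (3.12%), LINC01356 and LINC00632, held one, and for 11 of the called LINC genes, of which 1 (9.09%) did. For the called genes LINC02086, LINC01867 and LINC01896 the window lay upstream of the measured gene model and did not reach it. A match describes the letters in the window and not binding.

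The labels were checked first on known Wnt targets and feedback genes. All 12 listed genes were tested, and 10 fell with IWP2 while 0 rose (median difference -1.28 on the log2(FPKM + 1) scale). SP5 was at 53.2 and 47.0 FPKM in the DMSO libraries and at 0.379 and 0.363 FPKM with IWP2. LEF1, a TCF/LEF factor that is itself a target, was at 9.34 and 9.70 FPKM against 0.144 and 0.239 FPKM, and AXIN2, a scaffold of the beta-catenin destruction complex, at 14.2 and 15.2 FPKM against 6.45 and 5.58 FPKM. RNF43 and ZNRF3, which encode ubiquitin ligases that remove Wnt receptors, did not pass the test (log2 differences -0.17 and 0.19). All 10 called genes were lower in the libraries labelled IWP2.

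Markers of cell types also differed between the groups. Of 13 tested mesoderm and primitive streak markers, 13 fell, with summed levels of 1284 and 1628 FPKM in the DMSO libraries and 159 and 182 FPKM with IWP2. APLNR, a peptide receptor of early mesoderm, was the most abundant of them, and no marker on that list was listed at 0 in all libraries. Of 9 tested pluripotent stem cell markers, 6 rose and 1, TDGF1, fell, and the summed levels were 1455 and 1284 FPKM against 2631 and 2632 FPKM. POU5F1, the most abundant of these, was at 751 and 571 FPKM against 1854 and 1844 FPKM, and SOX2 was at 0.193 and 0.174 FPKM against 35.6 and 36.1 FPKM. Of 4 tested definitive endoderm markers 3 fell, with sums of 1775 and 2158 FPKM against 119 and 130 FPKM, CER1 the most abundant. Of 4 tested amnion or trophoblast markers 2 rose (KRT7 and TFAP2A), with sums of 63.7 and 63.7 FPKM against 80.5 and 86.9 FPKM, GATA3 the most abundant. None of 4 neural ectoderm markers and none of 6 endothelial and blood markers reached the floor for testing, with NEUROD1 and GATA1 at 0 in all 4 libraries, and their sums stayed at or below 1.51 FPKM and 1.14 FPKM. In bulk RNA, fewer cells of a type and less RNA per cell cannot be told apart, and the part of these markers in the LINC differences was not tested.

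LINC genes took a small and unequal share of the transcriptome. Together the 88 genes summed to 788 and 759 FPKM in the DMSO libraries and to 656 and 688 FPKM in the IWP2 libraries, which was 0.1205%, 0.1231%, 0.1021% and 0.1056% of all FPKM in the same order. The groups did not overlap in this sum. Without LINC00467, the most abundant gene, the sums were 638.9 and 623.1 FPKM against 569.4 and 599.7 FPKM, so that the groups were still apart but nearer to each other. The 5 most abundant LINC genes made up between 43.5% and 45.9% of the sum in every library. The mean level over the 4 libraries ran from 0.635 to 115 FPKM with a median of 2.57 FPKM, against 9.9 FPKM over all 14278 rows that passed the same floor. There were 17 genes with a mean of at least 10 FPKM, 39 between 2 and 10 FPKM and 32 under 2 FPKM. The number of LINC rows at or above 1 FPKM was 87 and 79 in the DMSO libraries and 83 and 85 with IWP2, which overlapped.

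Of the 10 most abundant LINC genes 6 were called between IWP2 and DMSO and 4 were not, beside 15.4% called of the 4982 tested rows with a mean of at least 17.4 FPKM, the level of the tenth, and 10 genes are too few to read more from this. LINC00467, named in many tumor studies, was at 149 and 136 FPKM in the DMSO libraries and 86.8 and 88.7 FPKM with IWP2, the highest value of any LINC gene in all 4. LINC01578, which RefSeq calls CHASERR and which lies upstream of CHD2 and restrains it, was at 68.2 and 60.9 FPKM against 69.6 and 72.5 FPKM (log2 difference 0.14 ± 0.09, SE, adjusted p = 0.377 in limma). LINC00116, now MTLN, encodes a small protein of mitochondria and was at 43.3 and 66.8 FPKM against 46.6 and 65.1 FPKM. Its groups overlapped and its log2 difference was 0.03 ± 0.25 (adjusted p = 0.945). LINC01002 overlapped as well, at 46.7 and 29.9 FPKM against 46.5 and 32.6 FPKM (0.06 ± 0.26, adjusted p = 0.907), and this gene has 2 near-identical copies elsewhere, so that its reads may be split between loci. LINC01198 was at 28.6 and 15.8 FPKM against 12.7 and 12.4 FPKM. Both IWP2 libraries lay below both DMSO libraries, but DMSO replicate 1 stood well above the other 3, and the difference of -0.72 ± 0.27 did not pass the test (adjusted p = 0.136). The difference of LINC01198 was -1.13 without DMSO replicate 2 and -0.32 without DMSO replicate 1. The remaining genes among the 10 most abundant, LINC00665, LINC00678, LINC01356, LINC00888 and LINC00458, are described with the called genes.

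The comparison of IWP2 with DMSO was fitted over all 14278 tested rows with limma, and a row was called at a Benjamini-Hochberg adjusted p under 0.05. Of the 88 LINC genes 17 were called (19.3%), against 2316 of all tested rows (16.2%). With IWP2, 6 LINC genes were higher (6.82%, against 7.23% of all tested rows) and 11 were lower (12.5%, against 8.99%). At an unadjusted p under 0.05 there were 33 (37.5%), against 31.1% of all tested rows. With at least 2-fold on the same scale added to the rule, 14 LINC genes were called (15.9%), 5 higher and 9 lower, against 7.46% of all tested rows. In 49 LINC genes (55.7%) the libraries of the groups did not overlap, 26 with IWP2 below DMSO and 23 above, against 60.2% of all tested rows. The share of LINC genes was thus above that of all tested rows for all calls together, at the unadjusted p and for lower calls. The margin was widest under the 2-fold rule. The share was below that of all tested rows for higher calls and for groups that did not overlap. For higher calls this order turned with the fit. With the replicate number as a block 7 LINC genes and 997 rows were higher, and without a variance trend 8 and 1005. These shares are a description with no test, and 5 of the called LINC genes reached the floor in the libraries of 1 group only and so had to differ. The median difference was 0.04 over the LINC genes and -0.02 over all tested rows, and 58 LINC genes lay within 0.5 of 0. An exact permutation of 2 against 2 libraries cannot go below a two-sided p of 0.333, and calls rest on the spread shared across rows.

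**Figure D1:**
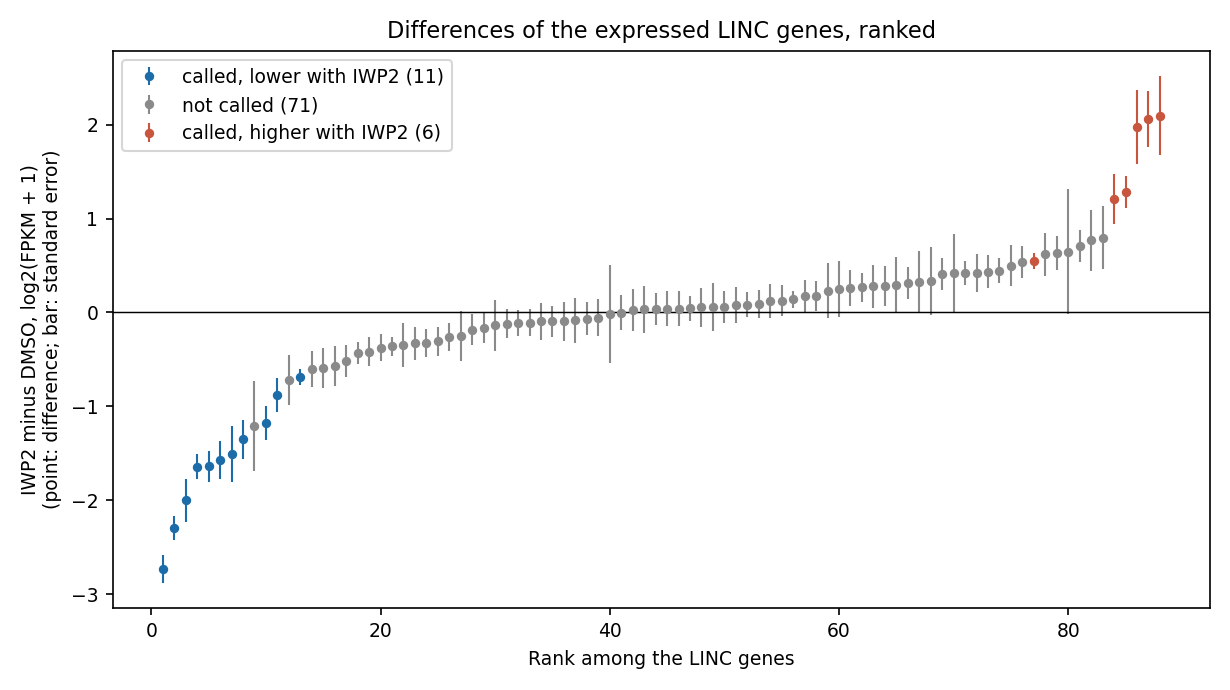
Difference of each of the 88 LINC genes (IWP2 minus DMSO on the log2(FPKM + 1) scale, vertical axis) against its rank (horizontal axis). Points are the fitted differences and bars their standard errors, blue for the 11 genes called lower, red for the 6 called higher and grey for the 71 not called. Most genes lie close to 0, and the called genes sit at both ends except LINC00467 and LINC00665, which are called at smaller differences with short bars.

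The calls depended on the IWP2 libraries and on the filter. Without IWP2 replicate 1 only 5 LINC genes were called, and without IWP2 replicate 2 only 4, while 16 were called without DMSO replicate 2 and 19 without DMSO replicate 1. Over all tested rows the same settings called 569, 579, 1414 and 1656 rows. LINC02086, LINC00458, LINC00888 and LINC01356 were called with any 1 library left out. With every row above 0 in the fit, 28917 rows, only LINC02086, LINC00458, LINC00888 and LINC01124 were called, and the adjusted p of the other 13 lay between 0.0606 (LINC00467 and LINC00665) and 0.185 (LINC01405), with 0.0671 for LINC01356 and 0.0848 for LINC00937. The libraries of the DMSO pair differed by a median of 0.25 on the log2 scale over the LINC genes and those of the IWP2 pair by 0.21, against 0.16 and 0.13 over all tested rows. The median SD between replicates was 0.18 for LINC genes against 0.12 for all tested rows.

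**Figure D2:**
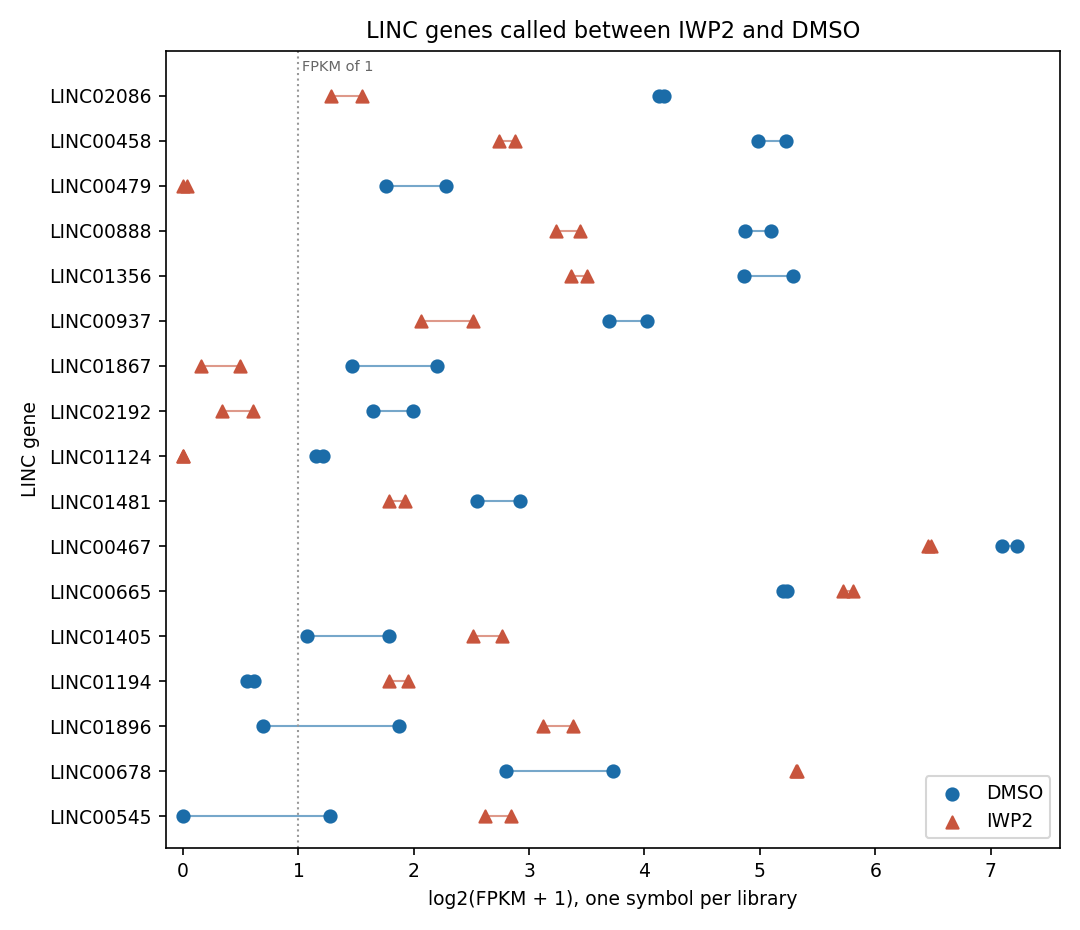
Level of the 17 called LINC genes in each library, as log2(FPKM + 1) on the horizontal axis, with a blue circle per DMSO library and a red triangle per IWP2 library, and a line that joins the libraries of a group. A dotted line marks 1 FPKM, and a symbol at 0 is a library listed at 0 FPKM. The groups are apart in every row, and the DMSO circles spread widest for LINC00545 and LINC01896.

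Of the LINC genes that fell, 5 had more than 10 FPKM in both DMSO libraries and a mean more than 3 times as high there as with IWP2. LINC02086 (ENSG00000244649, chr17:48646923-48707346, plus strand, GRCh38) was at 16.4 and 17.0 FPKM in the DMSO libraries and 1.93 and 1.43 FPKM with IWP2. The mean was 9.96 times higher in DMSO, and the difference was -2.73 ± 0.15 (SE, adjusted p = 0.000594). LINC00458 (ENSG00000234787, chr13:54115783-54132866, minus strand), a transcript known from pluripotent stem cells, was at 30.6 and 36.3 FPKM against 5.67 and 6.33 FPKM, and the difference was -2.30 ± 0.13 (adjusted p = 0.000667). Of the protein-coding pluripotency markers above, TDGF1 also fell, whereas 6 rose. LINC00888 (ENSG00000240024, chr3:183447608-183456013, plus strand), annotated as a transcribed pseudogene, was at 28.2 and 33.1 FPKM against 8.41 and 9.86 FPKM (-1.64 ± 0.13, adjusted p = 0.00211). LINC01356 (ENSG00000215866, chr1:112820170-112850643, minus strand), whose window is printed above, was at 38.0 and 28.1 FPKM against 9.30 and 10.3 FPKM (-1.64 ± 0.16, adjusted p = 0.00377). The DMSO values of LINC01356 lay farther apart than its IWP2 values, and 21.9% of its exonic bases are shared with a gene on the opposite strand, whose reads cannot be told apart with this kit. LINC00937 (ENSG00000226091, chr12:8295986-8396803, minus strand) was at 15.3 and 11.9 FPKM against 4.70 and 3.19 FPKM (-1.57 ± 0.20, adjusted p = 0.00793). Its adjusted p was 0.0561 without IWP2 replicate 2.

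A second set fell from a low level. LINC00479 (ENSG00000236384, chr21:41711520-41715775, minus strand) was at 2.39 and 3.85 FPKM in the DMSO libraries, 0 in IWP2 replicate 1 and 0.0259 FPKM in IWP2 replicate 2. It fell by 2.00 ± 0.23 on the log2 scale (adjusted p = 0.00555). LINC01867 (ENSG00000225444, chr2:52373118-52390012, plus strand) was at 1.76 and 3.59 FPKM against 0.114 and 0.412 FPKM (-1.51 ± 0.30, adjusted p = 0.0266), and LINC02192 (ENSG00000261325, chr16:47849314-47887130, minus strand) at 2.98 and 2.13 FPKM against 0.260 and 0.520 FPKM (-1.35 ± 0.21, adjusted p = 0.0136). LINC01124 (ENSG00000222033, chr2:170712451-170714567, minus strand) was at 1.22 and 1.32 FPKM in the DMSO libraries and listed at 0 in both IWP2 libraries, so that no fold is given (difference -1.18 ± 0.18, adjusted p = 0.0129). All 4 passed the floor only through the DMSO libraries and so had to differ. The size of these differences was set by the added 1 FPKM, and with 0.1 FPKM added they were -4.81 for LINC00479, -2.99 for LINC01867, -2.47 for LINC02192 and -3.77 for LINC01124. The adjusted p without IWP2 replicate 1 and without IWP2 replicate 2 was 0.0563 and 0.056 for LINC00479, 0.156 and 0.11 for LINC01867, 0.1 and 0.0726 for LINC02192 and 0.0897 and 0.0944 for LINC01124. That of LINC01867 was 0.0676 without DMSO replicate 2.

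Smaller decreases were called in 2 LINC genes with higher values. LINC00467 (ENSG00000153363, chr1:211382803-211435333, plus strand), whose values are given above, was 1.62 times higher in DMSO by the means and differed by -0.69 ± 0.08 (adjusted p = 0.00684). LINC01481 (ENSG00000257815, chr12:69904033-70243360, minus strand), which RefSeq calls PRANCR and which is known from keratinocytes, was at 6.57 and 4.83 FPKM against 2.44 and 2.79 FPKM (-0.88 ± 0.18, adjusted p = 0.0292). It shares 19.8% of its exonic bases with CNOT2 on the opposite strand. Neither difference was called with an IWP2 library left out. The adjusted p was 0.0687 for LINC00467 and 0.171 for LINC01481 without IWP2 replicate 1, and 0.0639 and 0.132 without IWP2 replicate 2. That of LINC01481 was 0.0869 without DMSO replicate 1.

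With IWP2, 6 LINC genes rose, and the order of their differences changed with the pseudocount and with the library left out. LINC00545 (ENSG00000236094, chr13:30882551-30883395, plus strand) was at 1.42 FPKM and 0 in the DMSO libraries and 5.15 and 6.19 FPKM with IWP2 (2.10 ± 0.42, adjusted p = 0.0285). It shares 58.9% of its exonic bases with TEX26-AS1 on the opposite strand, whose reads cannot be separated from its own. LINC00678 (ENSG00000254934, chr11:27617626-27634627, minus strand), known from pluripotent cells, was at 12.2 and 5.97 FPKM against 39.1 and 38.8 FPKM (2.06 ± 0.30, adjusted p = 0.0108). Its IWP2 values were nearly equal, whereas the DMSO libraries differed from each other. LINC01896 (ENSG00000263146, chr18:78976555-78979074, minus strand) was at 0.614 and 2.65 FPKM against 7.71 and 9.42 FPKM (1.97 ± 0.39, adjusted p = 0.0271). DMSO replicate 2 was above DMSO replicate 1, and both lay below the IWP2 libraries. LINC01194 (ENSG00000248131, chr5:12574857-12804363, plus strand) was at 0.534 and 0.467 FPKM against 2.87 and 2.44 FPKM (1.28 ± 0.17, adjusted p = 0.00825) and passed the floor only through the IWP2 libraries. LINC01405 (ENSG00000185847, chr12:110936585-110958208, plus strand) was at 2.44 and 1.11 FPKM against 4.71 and 5.80 FPKM (1.21 ± 0.27, adjusted p = 0.0367). LINC00665 (ENSG00000232677, chr19:36313067-36331718, minus strand), which lies in a cluster of zinc finger genes, was at 35.9 and 36.7 FPKM against 51.9 and 54.9 FPKM (0.55 ± 0.08, adjusted p = 0.0133), a small difference between tight pairs.

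None of these 6 increases was called with an IWP2 library left out. Without IWP2 replicate 1 and without IWP2 replicate 2 the adjusted p was 0.138 and 0.166 for LINC00545, 0.0885 and 0.0881 for LINC00678, 0.131 and 0.164 for LINC01896, 0.0838 and 0.0694 for LINC01194, 0.144 and 0.205 for LINC01405 and 0.0853 and 0.112 for LINC00665. The adjusted p of LINC01405 was 0.0724 without DMSO replicate 2. With 0.1 FPKM in place of 1 FPKM added before the logarithm, the differences of LINC00545 and LINC01194 grew to 3.88 and 2.20, and LINC00545 and LINC01405 were not called (adjusted p = 0.101 and 0.0501). LINC01125, now C2orf92, lay just outside the threshold at 1.12 and 0.918 FPKM against 2.54 and 2.06 FPKM (0.71 ± 0.17, adjusted p = 0.0504). LINC01125 was called with libraries scaled to the same upper quartile and, together with LINC00622, in limma without a variance trend.

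**Figure D3:**
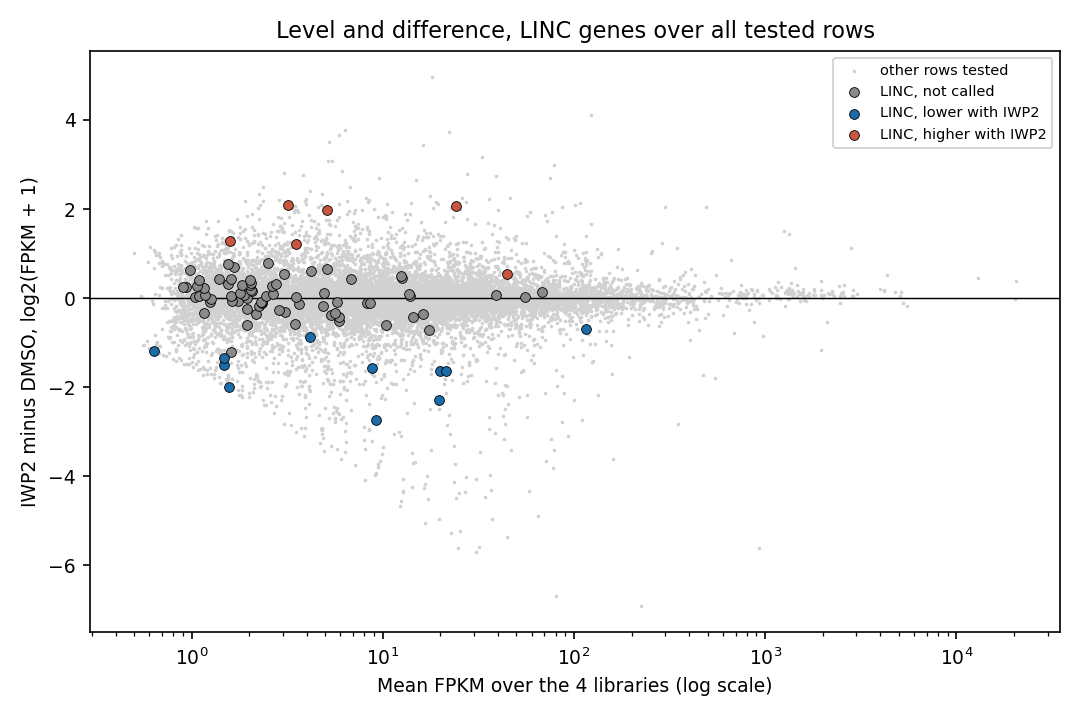
Difference (IWP2 minus DMSO on the log2(FPKM + 1) scale, vertical axis) against the mean FPKM over the 4 libraries (horizontal log axis) for the 88 LINC genes, in blue where called lower, red where called higher and grey where not called, over all other tested rows in light grey. The LINC genes lie to the left, with a median of 2.57 FPKM against 9.9 FPKM, and the lower edge of the cloud at low levels is the floor of the log2(FPKM + 1) scale.

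The LINC genes differed in how many libraries carried them. At least 1 FPKM was reached in all 4 libraries by 61 genes, in 3 by 14 and in 2 by 13, of which 10, 2 and 5 were called. Of all tested rows in the same classes 14.5%, 11.9% and 39.5% were called. The last 5 LINC genes (LINC00479, LINC01867, LINC02192, LINC01124 and LINC01194) reached the floor in 1 group only and so had to differ. Both DMSO libraries and neither IWP2 library reached it in 5 genes, the 4 named above and LINC01410, which was at 1.11 and 4.33 FPKM against 0.797 and 0.175 FPKM (-1.21 ± 0.48, adjusted p = 0.158) and has 1 near-identical copy. The difference of LINC01410 was -1.87 without DMSO replicate 1 and -0.54 without DMSO replicate 2. It was -1.51 without IWP2 replicate 1 and -0.9 without IWP2 replicate 2. Both IWP2 libraries and neither DMSO library reached it in 3 genes, LINC01194, LINC00622 at 0.465 and 0.639 FPKM against 1.27 and 1.55 FPKM (adjusted p = 0.0764), and LINC01529 at 0.575 and 0.899 FPKM against 1.04 and 1.11 FPKM (adjusted p = 0.411). The second highest value decided membership, and just inside the threshold it was 1.04 FPKM for LINC01529, 1.07 FPKM for LINC01232, 1.07 FPKM for LINC01572, 1.08 FPKM for LINC01004 and 1.11 FPKM for LINC01410. Just outside it was 0.973 FPKM for LINC00599, 0.962 FPKM for LINC02482, 0.946 FPKM for LINC01122, 0.892 FPKM for LINC00472 and 0.867 FPKM for LINC01759. Genes on either side of the threshold had similar values, and LINC00472 was at 2.99 FPKM in IWP2 replicate 1.

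LINC genes listed as tied to pluripotent cells or germ layers moved both ways. Of 8 such symbols 7 were in the table and 4 were tested, and LINC00458 and LINC00479 fell while LINC00678 and LINC00545 rose, beside 16.2% called over all tested rows. LINC00479 reached the floor only in the DMSO libraries and so had to be lower with IWP2, and 4 genes are too few to read more from the count. The list was also chosen with earlier results of these data known, so the count is a description only. LINC-ROR, named for its effect in reprogramming, did not reach the floor and was at 0.0743 and 0.0835 FPKM against 0.0169 and 0.0196 FPKM. LINC00261, which lies near FOXA2 and is known from definitive endoderm, was at 0.529 and 0.439 FPKM in the DMSO libraries and 3.82e-05 and 0.00053 FPKM with IWP2. FOXA2 itself, a forkhead factor, was at 6.28 and 3.49 FPKM against 0.222 and 0.297 FPKM. LINC01108 stayed between 0.178 and 0.469 FPKM. Of 9 LINC symbols now given to small-protein genes 2 were in the table, and the one tested, LINC00116, was not called. Of 9 with other names in wide use 5 were in the table and 3 were tested, of which LINC00467 fell. LINC00094, now BRD3OS, was at 8.94 and 8.86 FPKM against 9.23 and 7.22 FPKM (-0.11 ± 0.15, adjusted p = 0.663), and LINC00205 at 2.69 and 1.96 FPKM against 3.70 and 3.87 FPKM (0.53 ± 0.17, adjusted p = 0.0973).

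Beyond their symbol the genes were of several kinds. In GENCODE 29 there were 57 lincRNAs, 11 processed transcripts, 6 antisense transcripts, 5 transcribed unprocessed pseudogenes, 4 protein-coding genes, 3 bidirectional promoter transcripts, 1 sense overlapping transcript and 1 transcribed unitary pseudogene. All 88 matched the RefSeq table, which lists 83 as lncRNA and 4 as protein-coding (LINC00116, LINC01125, LINC00094 and LINC00959), and gives 18 of them a symbol that does not start with LINC. They lay on 21 chromosomes with a median exonic length of 3076 bases. No exonic base was shared with another gene in 44, of which 11 were called, and over 20% were shared in 13, of which 2 were called. A copy of at least 95% identity over at least 50% of a transcript was found for 6, and 0 of these was called. These small counts stand beside 16.2% called over all tested rows and are a description only.

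LINC genes were next compared with the nearest protein-coding gene, since many lncRNAs lie next to developmental genes. The median gap was 13.12 kb, 15 LINC genes overlapped their neighbor, and for 58 the neighbor had been tested. Over these 58 pairs Pearson's r of the differences was 0.39 and Spearman's rho 0.33, as a description over pairs that share the same 4 libraries. Without the SP5 and EOMES pairs, which lie farthest out, r was 0.54. Those pairs were left out for their values, and in the EOMES pair the LINC gene and its neighbor had opposite signs. Without the LINC genes that reached the floor in 1 group only, whose direction the rule had fixed, 51 pairs remained, with r of 0.41 and rho of 0.30. In these pairs the neighbors PRAC2, ALG1L2 and SOX3 reached the floor in 1 group only. The r and rho thus still include directions that the floor had fixed. Of the 12 called LINC genes with a tested neighbor 5 had a called neighbor, and all 5 pairs moved in the same direction. One of the 5 was LINC01124, which reached the floor only in the DMSO libraries and so had to be lower with IWP2. The same held for its neighbor SP5 and for PRAC2, the neighbor of LINC02086. Of the 46 LINC genes that were not called 8 had a called neighbor, and 4 of these pairs had the same direction and 4 opposite directions. One of the former was LINC00622 with ZNF697, whose direction was fixed in the same way, since LINC00622 reached the floor only in the IWP2 libraries. Among the latter, SOX3, the neighbor of LINC00632, reached the floor only in the IWP2 libraries and so had to be higher there. Over all 58 pairs 22.4% of the neighbors were called, against 16.2% of all tested rows.

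**Figure D4:**
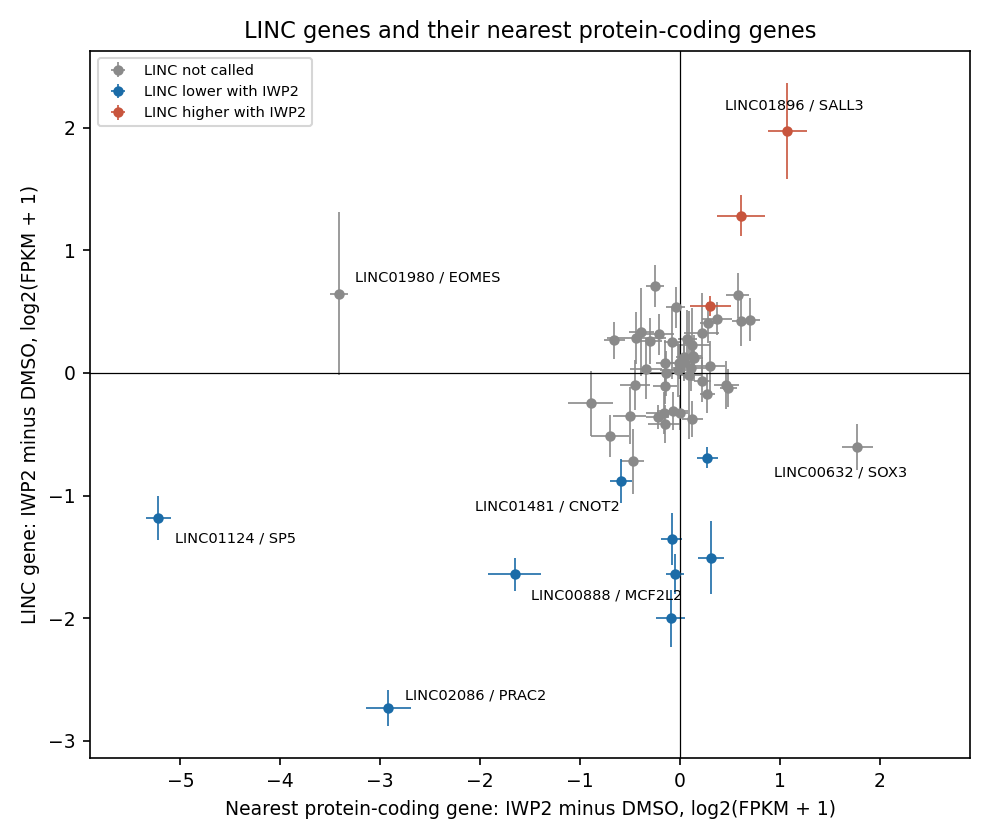
Difference of each LINC gene (vertical axis) against that of its nearest protein-coding gene (horizontal axis), both IWP2 minus DMSO on the log2(FPKM + 1) scale, for the 58 pairs in which both were tested. Bars are standard errors, and colors mark the LINC genes called lower (blue), called higher (red) or not called (grey). LINC02086 with PRAC2 and LINC01124 with SP5 lie at the lower left, LINC01896 with SALL3 at the upper right, and LINC01980 with EOMES and LINC00632 with SOX3 on the off-diagonal.

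LINC01124 and LINC01896 were both called and lie head to head with a called neighbor in RefSeq. LINC01124 lies 0.77 kb from SP5 on the other strand, and SP5 fell by 5.22 ± 0.12 on the log2 scale (adjusted p = 0.000152), the neighbor with the largest difference. SP5 was abundant in the DMSO libraries, whereas LINC01124 was near the floor there. By its RefSeq position LINC01896 lies 0.13 kb from SALL3, a zinc finger factor of the spalt family, on the other strand, and SALL3 was at 1.33 and 2.07 FPKM in the DMSO libraries and 4.25 and 5.02 FPKM with IWP2 (1.07 ± 0.19, adjusted p = 0.021). Their RefSeq windows share 226 bases, read on opposite strands, and are shown for this shared stretch. The row measured as LINC01896 ends 568 bases before its window, so that the shared stretch holds for the RefSeq start and not for the measured gene model.
LINC01896, chr18:78979642-78979941, minus strand: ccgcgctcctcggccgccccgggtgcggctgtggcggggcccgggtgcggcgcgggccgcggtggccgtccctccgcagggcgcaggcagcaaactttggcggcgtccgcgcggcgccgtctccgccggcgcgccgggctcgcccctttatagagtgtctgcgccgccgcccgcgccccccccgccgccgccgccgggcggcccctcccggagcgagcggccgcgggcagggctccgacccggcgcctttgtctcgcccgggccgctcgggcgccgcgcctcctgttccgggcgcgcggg
SALL3, chr18:78979568-78979867, plus strand: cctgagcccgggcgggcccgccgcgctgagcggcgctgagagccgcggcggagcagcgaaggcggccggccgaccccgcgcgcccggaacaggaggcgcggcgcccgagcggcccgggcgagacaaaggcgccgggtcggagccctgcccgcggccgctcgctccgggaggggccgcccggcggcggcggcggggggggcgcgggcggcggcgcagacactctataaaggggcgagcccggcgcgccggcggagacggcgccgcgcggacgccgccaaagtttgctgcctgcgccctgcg
Neither window held CTTTGAA or CTTTGAT, and 84.0% and 83.0% of their bases were G or C.

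The other 3 pairs of called genes were both lower with IWP2, 2 of them kilobases apart and 1 overlapping. LINC02086 lies 11.32 kb from PRAC2, on the same strand next to the HOXB cluster, and PRAC2 was at 5.96 and 8.82 FPKM against 0 and 0.196 FPKM (-2.92 ± 0.23, adjusted p = 0.00197). LINC00888 lies 18.99 kb from MCF2L2, which encodes a guanine nucleotide exchange factor, at 4.75 and 4.27 FPKM against 1.23 and 0.371 FPKM (-1.65 ± 0.26, adjusted p = 0.0146). LINC01481 overlaps CNOT2, a subunit of the CCR4-NOT deadenylase, at 54.9 and 52.5 FPKM against 38.4 and 32.4 FPKM (-0.59 ± 0.11, adjusted p = 0.0224), and reads of the shared bases cannot be assigned to a strand.

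The other 7 called LINC genes with a tested neighbor had a neighbor that did not pass the test, which does not show that it did not differ. The differences were 0.61 ± 0.24 for CTNND2 (670.4 kb from LINC01194), 0.30 ± 0.20 for ZFP14 (2.7 kb from LINC00665) and 0.31 ± 0.13 for ASB3 (1280 kb from LINC01867). They were 0.28 ± 0.11 for TRAF5 (7.81 kb from LINC00467) and -0.08 ± 0.11 for PHKB (147.8 kb from LINC02192). CTNND2 and ZFP14 had the sign of their LINC gene, and ASB3 and TRAF5 the opposite sign. PHKB, and SLC16A1 and RIPK4 below, also had the sign of their LINC gene, with differences smaller than their standard errors. CTNND2 was at 0.792 and 1.22 FPKM against 2.64 and 1.56 FPKM, with the groups apart, as they were for ZFP14, ASB3 and TRAF5. LINC01356 lies 61.2 kb from SLC16A1, a lactate transporter gene, which was at 197 and 205 FPKM against 204 and 184 FPKM (-0.05 ± 0.09, adjusted p = 0.747). LINC00479 lies near RIPK4, a kinase gene, which was at 2.42 and 2.38 FPKM against 2.13 and 2.26 FPKM (-0.09 ± 0.15, adjusted p = 0.726). The most different pair among those not called was LINC01980 with EOMES, a T-box factor of the primitive streak, 74.88 kb away. EOMES was at 138 and 153 FPKM against 12.8 and 12.6 FPKM (-3.41 ± 0.09, adjusted p = 0.000152). LINC01980 was at 1.29 and 6.70 FPKM against 3.30 and 9.03 FPKM, with overlapping groups (0.65 ± 0.66, adjusted p = 0.569). LINC00632, the host of the circular RNA CDR1as, was at 2.58 and 2.51 FPKM against 1.65 and 1.05 FPKM (-0.60 ± 0.19, adjusted p = 0.0927), whereas its neighbor SOX3, a paralog of SOX2, was at 0.488 and 0.445 FPKM against 4.08 and 3.97 FPKM (1.78 ± 0.15, adjusted p = 0.00264).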

How the data were processed

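RNA was prepared with the Illumina TruSeq kit from H1 cells at day 2, and the authors deposited a single table of FPKM values, with 2 columns marked -IWP2, read as DMSO, and 2 marked +IWP2. The submitters' processing notes name RSEM, BWA and Bowtie, with no version or role. They name hg19, but 99.83% of the 55639 rows that carry the same gene version as GENCODE 29 have its GRCh38 position, and coordinates are given in that build. The unit is not named in the header, and the values are not whole numbers, so no count test was used. All 14278 rows with at least 1 FPKM in at least 2 libraries were fitted as log2(FPKM + 1) with limma 3.58.1 in R 4.3.3 (variance trend across rows, Benjamini-Hochberg adjustment), which understates the change of low genes. The fit was tested on simulated data. Median residual plus prior degrees of freedom were 5.38 per row. Copies were sought with BLAST 2.17.0, and neighbors, names and promoter windows are from RefSeq.

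Members and lists were chosen with earlier results of these data known. Named were the called genes, the 10 most abundant, the 5 on each side of the threshold and those at the floor in 1 group only, with their nearest genes and the listed markers. LINC01125 and the pairs LINC01980 with EOMES and LINC00632 with SOX3 were also named, for their values. Other pseudocounts, filters, scalings, a fit without a trend, a 2-fold limit, a replicate block and leaving out each library were tried. There were 0 other sample columns.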

Additional observations from a re-analysis of the deposited data

How the results depend on the processing

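Of the 17 called LINC genes, 0 changed direction under any alternative. LINC02086, LINC00458 and LINC00888 were called in all 13 alternatives in which they were fitted and LINC01356 in 12. With every row above 0 in the fit 4 LINC genes and 381 rows were called, against 17 and 2316. With a 2-fold limit 14 LINC genes and 1065 rows were called. Leaving out 1 library gave 4 to 19 LINC genes, 569 to 1656 rows and a median LINC difference of -0.017 to 0.049, against 0.037. The lowest counts came without an IWP2 library, when the spread rests on the DMSO pair and an IWP2 group of 1 library is assumed to vary like it. Without DMSO replicate 2 the median was -0.017. Other pseudocounts, scalings and the fit without a trend gave 15 to 19 LINC genes and 2222 to 2386 rows. The balance of directions over all rows depended on the scaling. With libraries scaled to the same upper quartile 1205 rows were higher and 1143 lower, against 1032 and 1284 in the main fit. Of the LINC genes 7 were then higher and 11 lower.

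The labels number the libraries 1 and 2 in both groups, but with 2 pairs and no stated batch the samples share only a number (correlation of the deviations of same-numbered libraries 0.205 over 14278 rows). With the replicate block 19 LINC genes and 2238 rows were called, among them the 17 and also LINC01021 and LINC02210. Depth is unknown, so that the precision of LINC genes near 1 FPKM could not be judged from counts. On the log2(FPKM + 1) scale the standard error varied widely among genes of similar level. The largest was 0.66 for LINC01980 (mean 5.08 FPKM), followed by 0.52 for LINC01484 (1.26 FPKM) and 0.48 for LINC01410 (1.60 FPKM). It was 0.19 for LINC01572 (1.09 FPKM), 0.25 for LINC00116 (55.4 FPKM) and 0.08 for LINC00467 (115 FPKM).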

Other observations

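The replicate 1 libraries did not overlap the replicate 2 libraries in 20 of the 88 LINC genes (22.7%), close to the share of all tested rows (3113, 21.8%), so that the count shows nothing about LINC genes. The following genes were picked after their values were seen. LINC01980 was at 1.29 and 3.30 FPKM in the replicate 1 libraries and 6.70 and 9.03 FPKM in the replicate 2 libraries. LINC00116 was at 43.3 and 46.6 FPKM against 66.8 and 65.1 FPKM, and LINC01002 at 46.7 and 46.5 FPKM against 29.9 and 32.6 FPKM. LINC01484 was at 2.51 and 1.62 FPKM against 0.256 and 0.646 FPKM. Summed mitochondrial FPKM was 62566 and 57551 in the replicate 1 libraries and 38525 and 45117 in the replicate 2 libraries, and its part in these values was not tested.

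Of the 22 LINC rows that reached 1 FPKM in exactly 1 library, LINC01535 was the one with the highest value, at 5.40 FPKM in IWP2 replicate 2 and at 0, 0.0683 and 0.110 FPKM in the other libraries. LINC00379, LINC01894 and LINC02474 were listed at 0 in both IWP2 libraries and above 0.7 FPKM in both DMSO libraries. These rows were chosen after their values were seen and were not tested.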
